A study of Mus musculus with 6 samples.

Results

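CpG-rich promoters, as taken here, are accessible regions that lie at the start of a protein-coding gene and whose DNA is rich in G, C and the CpG dinucleotide. The peaks of the 6 lists on chromosomes 1 to 19 and X were merged into 112672 regions. A region was kept when its midpoint lay within 1000 bp of a protein-coding start in the GENCODE M21 annotation, and when the 1000 bp of mm10 sequence around the midpoint held at least 50% GC and a CpG observed/expected ratio of at least 0.6. That ratio divides the number of CpGs by the number that the C and G content alone would give. This left 10084 regions, and neither accessibility nor its change entered the choice beyond the presence of a peak. They were compared with 5809 CpG-poor promoters, which share the position, with 1671 CpG-rich regions away from starts, which share the sequence, and with the 95108 other regions.

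The samples were L-GMP cells, leukemic granulocyte-macrophage progenitors with leukemia stem cell (LSC) activity, from a murine acute myeloid leukemia driven by the MLL-AF9 fusion. The labels give the genotype as WT, the tissue as blood and the cell type as AML LSCs, and all cells were kept in culture with serum and mouse IL3. Chromatin was opened to the Tn5 transposase in 3 control samples and in 3 samples that had received MMF for 24 h, the time in the labels. A legend of the study gives a shorter exposure for this assay. MMF is mycophenolate mofetil, an inhibitor of IMPDH, the enzyme that turns IMP towards guanine nucleotides. The comparison asks whether accessibility differs between them at these promoters. Nothing in the labels says that replicates came from separate cultures or animals, so p-values measure the spread between these samples, which may be technical.

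In mammals most DNA has lost its CpGs because methylated cytosine mutates readily, and stretches that escaped methylation in the germline remain as CpG islands. Such islands form the promoters of nearly all housekeeping genes and of many developmental regulators, whereas promoters of tissue-restricted genes are often CpG-poor. Unmethylated CpGs are bound by proteins with a CXXC domain, among them MLL (Kmt2a), the H3K4 methyltransferase whose fusion drives this leukemia and which works with menin (Men1) and LEDGF (Psip1).

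What the rule selects is seen in the DNA around the peak summits. The 200 bp around the summit are shown 5′ to 3′ on the coding strand, read from GRCm38.p6, with each CpG in capitals, for 3 promoters that were lower with MMF, for the promoter with the clearest rise and, as a contrast, for the CpG-poor promoter of Itgam, which encodes the myeloid surface protein CD11b. They are Rpl11, a protein of the large ribosomal subunit (chr4:136053326-136053525, minus strand), Tfrc, the transferrin receptor (chr16:32608840-32609039, plus strand), Meis1, a homeobox cofactor of HOX proteins (chr11:19018881-19019080, minus strand), Sestd1 (chr2:77281142-77281341, minus strand) and Itgam (chr7:128062541-128062740, plus strand).
Rpl11: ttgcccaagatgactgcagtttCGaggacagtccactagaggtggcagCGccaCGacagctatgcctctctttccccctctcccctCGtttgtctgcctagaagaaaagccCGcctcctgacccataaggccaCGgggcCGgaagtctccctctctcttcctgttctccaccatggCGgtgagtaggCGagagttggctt
Tfrc: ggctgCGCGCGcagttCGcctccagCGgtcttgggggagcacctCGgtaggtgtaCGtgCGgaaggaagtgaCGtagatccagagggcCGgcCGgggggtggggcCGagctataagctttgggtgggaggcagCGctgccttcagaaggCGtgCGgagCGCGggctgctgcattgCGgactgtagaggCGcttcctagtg
Meis1: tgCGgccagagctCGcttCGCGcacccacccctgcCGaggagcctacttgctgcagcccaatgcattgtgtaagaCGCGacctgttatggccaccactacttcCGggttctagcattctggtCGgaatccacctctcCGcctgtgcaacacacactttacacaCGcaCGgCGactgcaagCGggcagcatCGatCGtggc
Sestd1: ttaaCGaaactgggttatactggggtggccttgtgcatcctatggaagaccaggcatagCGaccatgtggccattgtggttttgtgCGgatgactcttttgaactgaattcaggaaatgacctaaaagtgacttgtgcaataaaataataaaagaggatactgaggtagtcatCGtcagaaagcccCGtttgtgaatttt
Itgam: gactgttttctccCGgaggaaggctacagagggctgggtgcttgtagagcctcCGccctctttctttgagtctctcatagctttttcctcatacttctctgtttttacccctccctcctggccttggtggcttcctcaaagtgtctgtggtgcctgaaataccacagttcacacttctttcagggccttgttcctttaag
The windows hold 9 CpGs at Rpl11, 19 at Tfrc, 16 at Meis1, 5 at Sestd1 and 2 at Itgam. The summit lay 33 bp upstream of the start at Rpl11, 43 bp upstream at Tfrc and 23 bp upstream at Meis1. At Sestd1 it lay 650 bp upstream of the start, and the 1000 bp around the midpoint of the region had a ratio of 0.846.

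Of 21644 protein-coding genes, 10739 (49.6%) had a start in CpG-rich DNA, and 9636 of these (89.7%) had a CpG-rich promoter region among the peaks. Of the 10905 genes without a CpG-rich start, 33.9% had any region centred within 1000 bp of a start, against 92.8% of the genes with a CpG-rich start. Among the CpG-rich promoters, 8222 (81.5%) had a peak in all 6 lists, against 50.8% of the CpG-poor promoters, 54.5% of the CpG-rich regions away from starts and 30.5% of the other regions. The CpG-rich promoters that missed a list were 1038 with a peak in 2 to 5 lists and 824 with a peak in 1 list. All tests of level below were made on the 8222, which passed a filter on presence and are not all members.

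The highest summit lay at a median of 46 bp upstream of the nearest start (interquartile range −109 to −1 bp), and 79.7% of the summits lay within 200 bp of it. In the CpG-poor promoters the median was 43 bp upstream, with 69.1% within 200 bp. At 1016 CpG-rich promoters (10.1%) genes started head to head on opposite strands, against 3.55% of the CpG-poor promoters. The word TATAAA between 40 and 20 bp before the start, where a TATA box would lie, was present at 0.853% of the CpG-rich and 1.51% of the CpG-poor promoters.

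**Figure D1:**
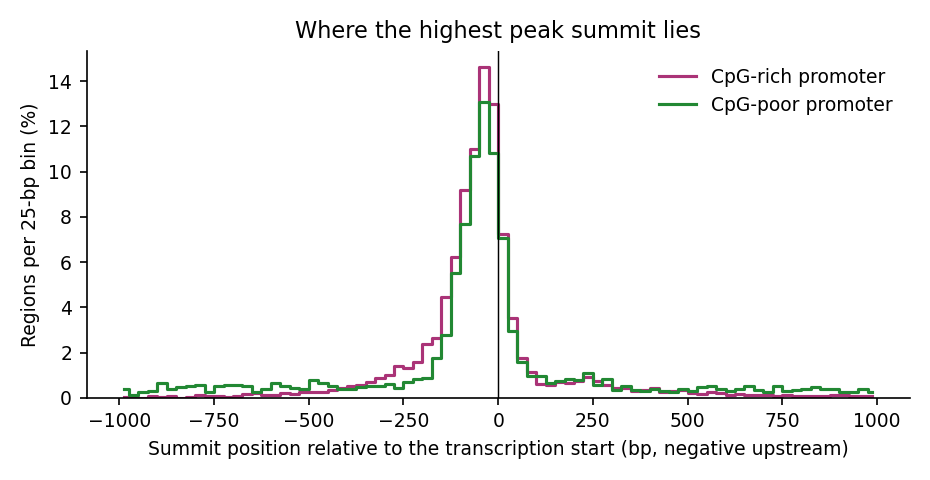
Position of the highest peak summit relative to the nearest protein-coding start (bp, negative upstream) for the regions with a peak in all 6 lists, as percent of regions per 25-bp bin. Both classes peak just upstream of the start, at medians of −46 bp for 8222 CpG-rich and −43 bp for 2950 CpG-poor promoters.

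Binding motifs were sought as fixed words on both strands in the 200 bp around each summit, and a match is a description of letters, not of binding. The rule chose the class by its GC and CpG content. How often words with or without a CpG occur is therefore partly set by that choice, and its part was not tested. The SP word CCCCGCCC was present at 31.5% of the CpG-rich promoters, 11.8% of the CpG-poor promoters and 5.22% of all regions. The NF-Y words CCAATCAG, CCAATCGG, CCAATGAG and CCAATGGG were found at 10.97%, 7.14% and 3.69%, and the NRF1 word GCGCATGCG at 3.36%, 0.740% and 0.454%. The YY1 word AAGATGGCG stood at 3.12%, 0.981% and 0.728%, and the ZBTB33 word TCTCGCGA at 2.27%, 0.362% and 0.239%. Words of blood lineage factors were scarcer in the CpG-rich promoters than in all regions, with PU.1 (GAGGAAGT) at 1.97% against 8.28%, RUNX (AACCACA) at 1.56% against 10.8% and AP-1 (TGAGTCA or TGACTCA) at 1.85% against 13.2%. The KLF words CCACACCC and CCACGCCC were present at 10.6% of the CpG-rich promoters, the E-box CACGTG at 8.41%, the ETS word CCGGAAGT at 7.38% and the CRE TGACGTCA at 3.43%, against 4.74%, 4.50%, 1.30% and 0.731% of all regions. The promoters with the highest level among those that held a word show the layout, with the word in capitals and read in its own direction. They are Calm3, a calmodulin gene (chr7:16924297-16924356, minus strand), Ppp1r10, a regulatory subunit of protein phosphatase 1 (chr17:35916630-35916690, plus strand), 9130023H24Rik (chr7:128238098-128238158, plus strand), Naa38 (chr11:69395723-69395782, minus strand) and Traf7 (chr17:24528155-24528214, minus strand).
Calm3 (NF-Y): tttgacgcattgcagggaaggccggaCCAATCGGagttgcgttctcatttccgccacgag
Ppp1r10 (NRF1): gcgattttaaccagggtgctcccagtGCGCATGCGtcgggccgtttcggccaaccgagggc
9130023H24Rik (YY1): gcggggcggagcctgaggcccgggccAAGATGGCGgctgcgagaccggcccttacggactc
Naa38 (ZBTB33): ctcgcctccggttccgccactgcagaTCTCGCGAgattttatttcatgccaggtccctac
Traf7 (PU.1): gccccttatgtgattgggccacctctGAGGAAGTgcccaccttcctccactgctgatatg

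The lists themselves differed between the groups. Control lists held 63802, 61980 and 58403 peaks and MMF lists held 86437, 86041 and 80774. The genome-wide background under a peak, which rises with depth, was 0.729, 0.691 and 0.620 reads in the controls and 0.909, 0.706 and 0.676 with MMF, so the ranges overlapped. CpG-rich promoters took little of the increase in peaks. They held 9675, 9575 and 9476 peaks of the control lists and 10020, 10160 and 10074 of the MMF lists. Their share of the peaks in a list was 15.6% ± 0.549 (SD, n = 3) in the controls and 11.96% ± 0.458 with MMF, a difference of −3.66 percentage points (exact permutation test over samples, two-sided, p = 0.1, the smallest that 3 against 3 samples allow, 0.1125 after Benjamini-Hochberg adjustment over 9 comparisons of the lists). With the 58403 peaks of lowest p from every list, the difference was −0.99 points.

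The same unevenness appeared region by region. A CpG-rich promoter had a peak in 88.0%, 87.6% and 86.8% of cases in the control lists and in 90.8%, 89.7% and 89.3% in the MMF lists. For CpG-poor promoters the means were 65.1% and 77.5%, and for other regions 47.8% and 70.2%. The CpG-rich promoters started at the highest share, and the part of the room left for more peaks in these differences was not tested. No control sample overlapped an MMF sample in any of these shares, each with an exact permutation p of 0.1. Only 41 CpG-rich promoters (0.407%) had a peak in every MMF list and in no control list, where 6.01% of all regions did. The opposite pattern was found at 8 CpG-rich promoters (0.0793%), against 0.182% of all regions. Taking equally long lists left 2 gained (0.0213%, where 2.36% of all regions were) and 83 lost (0.882%, where 1.37% of all were). Both shares stayed below those of all regions. The counts thus changed with the lists used, and the part of list length, which differs between the groups, was not tested.

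The gained promoters of highest level lay at Klf13, a Krüppel-like transcription factor, with depth-scaled levels of 77.0, 52.4 and 62.1 in the MMF samples, and at Ssbp4, Ddx42, Camkk2 and Abca2. Depth-scaled level is the number of reads over the summit divided by the genome-wide background reads of that sample. The lost promoters of highest level lay at Slc37a3, with 41.2, 56.4 and 43.5 in the controls, and at Lrp8, a lipoprotein receptor, Plekhn1, Ano8 and Zfp710. All 10 rest on summits of 16 to 70 reads. Of the 41 gained regions 12, and of the 8 lost regions 3, lay within 1000 bp of DNA that carried a peak in each of the 6 samples, and so beside DNA open in both groups. Among those named these are Klf13, Abca2, Camkk2, Ddx42, Plekhn1 and Zfp710. The gained Ddx42 region lay 101 bp from the region that Ccdc47 and Ddx42 share, which was called lower (relative −0.86, depth-scaled −0.50), and the region beside Klf13 was lower on the relative level (−0.52, limma adjusted p = 0.0048).

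At equal scaling for depth, CpG-rich promoters were the most accessible of the classes and were slightly lower with MMF. The 3 control samples had median depth-scaled levels of 81.0, 83.9 and 83.9 and the 3 MMF samples 73.7, 79.3 and 76.9, and the groups did not overlap. CpG-poor promoters stood at 42.5, 43.4 and 43.5 against 45.1, 46.7 and 45.8, and CpG-rich regions away from starts at 53.5, 54.96 and 53.2 against 50.6, 52.4 and 51.7. The other regions stood at 24.7, 24.6 and 24.2 against 33.0, 34.0 and 32.5. On the log2 scale the sample medians of CpG-rich promoters were 6.37 ± 0.0295 (SD, n = 3) and 6.26 ± 0.0534, a difference of −0.114 (exact permutation p = 0.1). Fewer accessible cells and less accessibility per cell cannot be told apart in such bulk samples.

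**Figure D2:**
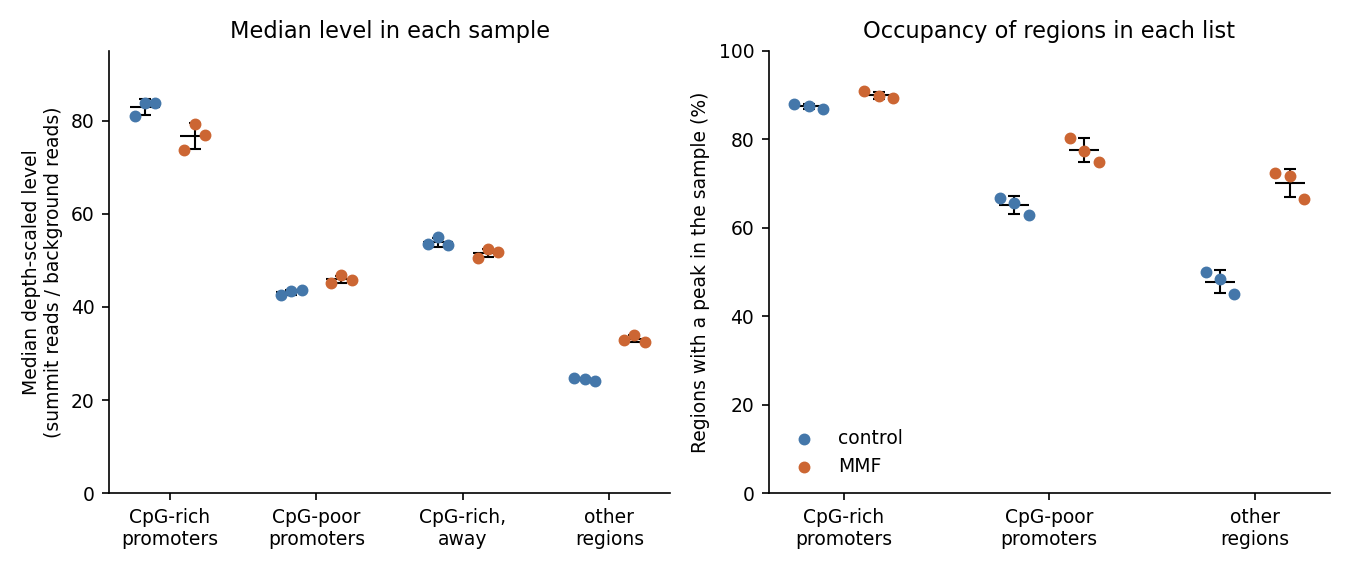
Left, median depth-scaled level (summit reads over background reads) of the regions with a peak in all 6 lists, 1 point per sample. Right, percent of the regions of each class with a peak in each list. Lines and bars give the mean and SD of 3 samples, control in blue and MMF in orange. Both promoter sequence classes sit higher than the other regions, and the CpG-rich promoters have a peak in 86.8% to 88.0% of cases in control and 89.3% to 90.8% in MMF lists.

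The median CpG-rich promoter differed by −0.119 (log2, MMF minus control, 0.921-fold) and 73.1% of them were lower on this scale, with an interquartile range of −0.23 to 0.01. Over all 41123 regions with a peak in every list the median difference was 0.17, so CpG-rich promoters differed from the regions as a whole by −0.284, and by −0.105 after quantile normalisation. The gap between the sample medians of CpG-rich and CpG-poor promoters was 0.942 ± 0.0118 in the controls and 0.739 ± 0.0279 with MMF, a difference of −0.202 (exact permutation p = 0.1, 0.15 adjusted over 3 class contrasts). Against CpG-rich regions away from starts the gap moved by −0.0506 (p = 0.2 by the same exact test), and against the other regions by −0.551 (exact p = 0.1). After quantile normalisation, which forces the same distribution on every sample, the contrast with CpG-poor promoters turned to 0.0179, so its sign depends on the scaling.

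Which single promoters were called depended strongly on how the samples were brought to a common scale, and the scalings are therefore given side by side. The median depth-scaled level of a sample over all shared regions was higher with MMF by 0.354 on the log2 scale. In the main test each sample was centred on that median, and this relative level asks whether a promoter moved against the middle of the accessible regions. Limma with Benjamini-Hochberg adjustment over the 41123 shared regions called 5600 CpG-rich promoters lower (68.1%, where 25.3% of all shared regions were called lower) and 3 higher (0.0365%, where 8.78% of all were). Centring in this way put the median difference of all shared regions at −0.19 and of CpG-rich promoters at −0.47 (0.721-fold), so a relative decrease is to be read against −0.19 rather than 0.

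Without centring, limma on the depth-scaled level called 589 CpG-rich promoters lower (7.16%, background 3.08%) and 71 higher (0.864%, background 21.8%). After quantile normalisation the counts were 762 lower (9.27%, background 6.27%) and 16 higher (0.195%, background 9.59%). Centring on the median ratio of the regions, an alternative added after the data had been seen, gave 2810 lower (34.2%, background 11.7%) and 15 higher (0.182%, background 13.7%). The promoters called lower on the relative, the depth-scaled and the quantile-normalised level alike numbered 337 (4.10%, background 2.07%), and 1 was called higher on all of them (0.0122%, background 7.72%). That promoter was Sestd1. Levels that did not overlap between the groups gave the same contrast, with 1588 CpG-rich promoters lower (19.3%, background 7.67%) and 261 higher (3.17%, background 29.2%) on the depth-scaled level, and 6015 lower (73.2%, background 31.1%) and 25 higher (0.304%, background 12.4%) on the relative level. In every scaling listed here, CpG-rich promoters were called lower more often and higher less often than the shared regions as a whole. On the depth-scaled and the quantile-normalised level the excess of lower calls was not particular to them. CpG-rich regions away from starts were called lower in 49.8% (relative), 7.90% (depth-scaled) and 10.98% (quantile-normalised) of cases. For CpG-poor promoters the shares were 34.3%, 5.15% and 9.39%.

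The difference grew with the level of the promoter. CpG-rich promoters with a mean depth-scaled level of 16 to 32 had a median difference of −0.015 (733 regions), those of 32 to 64 had −0.090 (1977), those of 64 to 128 had −0.124 (4090) and those of 128 and over had −0.162 (1216). Only in the bands from 64 upwards did the sample medians of the groups not overlap in the downward direction. Other regions of the same levels stood at 0.398, 0.341, 0.174 and −0.116, and CpG-poor promoters at 0.176, 0.058, −0.062 and −0.189. CpG-rich regions away from starts stood at 0.006, −0.025, −0.151 and −0.207. The classes thus spread further apart at low levels than at 128 and over. In that top band CpG-rich promoters were called lower on the depth-scaled level in 13.1% of cases. The share was 28.2% for CpG-rich regions away from starts, 36.9% for CpG-poor promoters and 35.3% for the 306 other regions.

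**Figure D3:**
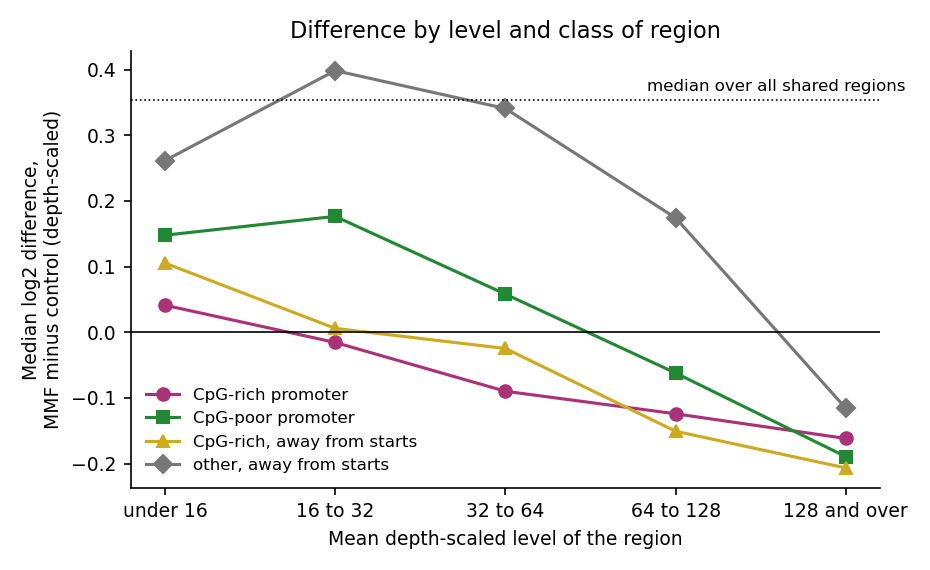
Median log2 difference of the depth-scaled level, MMF minus control, by the mean level of the region (axis in bands) for 4 classes of regions with a peak in all 6 lists. CpG-rich promoters run from 0.041 under a level of 16 to −0.162 at 128 and over, and the other regions from 0.398 at 16 to 32 to −0.116. The dotted line marks the difference between the groups in the sample medians over all shared regions, 0.354. The points are medians of differences per region, a measure that stood at 0.165 over all shared regions.

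Within the class, the richness in CpG made no visible step. From a ratio of 0.6 to 0.7 up to 1.0 and over, the median depth-scaled differences of the bands lay between −0.114 and −0.122, and over bands of GC content between −0.102 and −0.129. The levels followed the ratio more, from 69.3 at 0.6 to 0.7 to 86.2 at 0.9 to 1.0, with 80.7 at 1.0 and over. Near the limits of the rule, promoters with a ratio of 0.60 to 0.65 had a median difference of −0.122 and a level of 65.7 (711 regions), and promoters with a ratio of 0.55 to 0.60 had −0.101 and 60.7 (529 regions). Regions 800 to 1000 bp from a start had −0.024, and regions that missed the limit by up to 200 bp had 0.017, at levels of 44.6 and 43.1. Head-to-head promoters were both more accessible (105 against 76.5) and more often called lower on the depth-scaled level (11.8% of 955 against 6.55% of 7267). The 176 promoters on the X chromosome had a level of 47.4 and a median difference of −0.099, against 80.7 and −0.119 on the autosomes.

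Among the motif groups, promoters with an NF-Y word had a median level of 101 against 76.6 without, and those with a ZBTB33 word 103 against 78.7. The median depth-scaled difference was −0.139 with and −0.114 without an NF-Y word, and −0.162 with and −0.117 without a YY1 word. For the KLF words it was −0.142 with and −0.115 without. The difference grew with level, as given above, and the part of level in these values was not tested. Of the promoters with a YY1 word, 12.8% were called lower on the depth-scaled level, against 6.95% of the rest. For words of myeloid and blood factors the medians were −0.026 for C/EBP (TTGCGCAA, TTGCGTAA, TTGCACAA or TTGCATAA, 88 promoters), −0.062 for PU.1 (175 promoters), −0.095 for AP-1 (156) and −0.102 for RUNX (134). Called higher on that level were 6 promoters with a C/EBP word (6.82%), 7 with PU.1 (4.0%), 8 with AP-1 (5.13%) and 2 with RUNX (1.49%). The share was 0.864% over all CpG-rich promoters and 21.8% over all shared regions, so each of these groups lay below the shared regions as a whole. The highest promoters holding the other words were Abhd11 (KLF), Thrap3 (AP-1), Eif5a (E-box), Dapk3 (CRE), Rpp38 (RUNX), Zbtb10 (SP) and Hjurp (ETS and C/EBP). Thrap3, a coactivator with roles in splicing, had 215, 213 and 205 against 173, 159 and 192 and was called lower on the depth-scaled level (−0.28, limma adjusted p = 0.035), and Dapk3, a kinase, had 193, 194 and 182 against 189, 181 and 170 (−0.08). Between the groups, the gap in level between promoters with and without a word moved by 0.085 for C/EBP, 0.078 for PU.1, 0.085 for AP-1 and 0.051 for RUNX. It moved by −0.062 for YY1, −0.029 for ZBTB33 and −0.021 for NF-Y. Each of these had an exact permutation p of 0.1, and 0.186 adjusted over the 13 motifs. The adjusted values do not pass 0.05, which this number of samples could not reach.

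The study's own loci show the pattern gene by gene. Meis1 had depth-scaled levels of 113, 114 and 85.5 in the controls and 78.1, 79.3 and 76.9 with MMF, so every MMF sample lay below every control. Its relative level fell by 0.76 ± 0.14 on the log2 scale (SE, adjusted p = 2.1e-05 by limma), and it was also called lower on the depth-scaled (−0.40, adjusted p = 0.026) and the quantile-normalised level (−0.41, adjusted p = 0.036). On the deposited fold enrichment, which divides by the local background, its centred difference was 0.023. A second region of the gene, 744 bp upstream of the start, had a peak in 1 control and 1 MMF list only.

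Myc, the growth-promoting transcription factor, stood at 94.7, 96.9 and 98.4 in the controls and at 70.4, 70.8 and 88.7 with MMF. Its relative level fell by 0.70 (limma adjusted p = 8.5e-05), but the depth-scaled difference of −0.34 did not pass (adjusted p = 0.067). Pbx3, a partner of MEIS1, went from 110, 116 and 100 to 86.9, 96.3 and 81.3, and Hoxa9, the homeobox gene of the MLL-AF9 programme, from 63.1, 69.4 and 64.5 to 48.4, 53.8 and 51.7. The groups did not overlap at either gene, and both were called lower on the relative level (−0.65 and −0.71) and not on the depth-scaled level (−0.30 and −0.36). After quantile normalisation Hoxa9 was called lower (−0.53, limma adjusted p = 0.025) and Pbx3 was not (−0.27). On the centred fold enrichment Myc (−0.50), Pbx3 (−0.24) and Hoxa9 (−0.09) were not called. Cdk6, a cell cycle kinase, had 59.0, 65.1 and 64.5 against 59.4, 58.1 and 56.2, overlapping groups and a depth-scaled difference of −0.12.

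Itgam and Men1 do not belong to the class, because the ratio at their starts was 0.219 and 0.396. For the other genes of the menin complex, the relative level was lower at Psip1 (−0.57, limma adjusted p = 0.0015) and at Kmt2a (−0.38, adjusted p = 0.024). The depth-scaled differences of −0.22 at Psip1 and −0.02 at Kmt2a did not pass, and Kmt2a stood at 0.02 after quantile normalisation. Nfya, which encodes a subunit of NF-Y and shares its promoter with Oard1, had 189, 214 and 216 against 183, 161 and 176. It was lower on the relative level (−0.61) and had a depth-scaled difference of −0.25 (limma adjusted p = 0.060). Hexim2, an inhibitor of the elongation kinase P-TEFb, was lower on the relative level by 0.48 and had a depth-scaled difference of −0.12 with overlapping groups, and 0.05 after quantile normalisation. On the centred fold enrichment Psip1 (−0.23), Kmt2a (−0.15), Nfya (−0.23) and Hexim2 (−0.25) were not called.

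The enzymes of guanine nucleotide synthesis were also promoters of this kind. Impdh2, the main target of MMF in dividing cells, had levels of 137, 99.8 and 119 in the controls and 99.0, 108 and 96.1 with MMF, so the groups overlapped. Its relative level fell by 0.58 (limma adjusted p = 0.0003), and the depth-scaled difference of −0.22 did not pass. Impdh1 had 2 CpG-rich promoters with depth-scaled differences of −0.002 and −0.10, and neither passed on the relative, depth-scaled or quantile-normalised level. Gmps, GMP synthetase, stood at 0.037 on the depth-scaled and −0.32 on the relative level, with no call. Ppat, the first enzyme of the purine pathway, which shares its promoter with Paics, Gart (shared with Son) and Hprt, the salvage enzyme, were called lower on the relative level (−0.35, −0.42 and −0.59) and stood at 0.006, −0.07 and −0.23 on the depth-scaled level. None of these promoters was called on the depth-scaled level or on the centred fold enrichment.

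**Figure D4:**
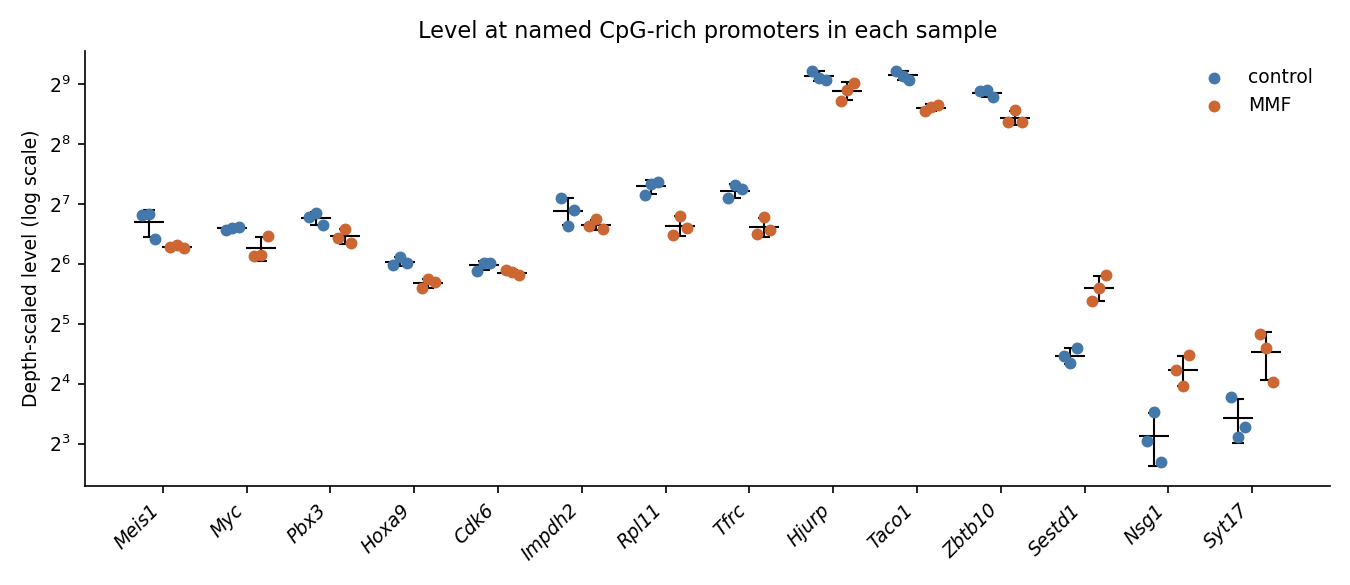
Depth-scaled level (log2 axis) at 14 CpG-rich promoters in each of 3 control (blue) and 3 MMF (orange) samples, with the mean and SD. The groups do not overlap at Meis1, Myc, Pbx3, Hoxa9, Rpl11, Tfrc, Hjurp, Taco1 or Zbtb10, where MMF is lower, nor at Sestd1, Nsg1 and Syt17, where MMF is higher. They overlap at Cdk6 and Impdh2.

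The promoters with the strongest fall, ranked by the moderated t of the relative level, were Taco1, Zbtb10, Grcc10, Rpl11, Hjurp, Alkbh1, Tfrc, Ccdc47, Brd2 and Srsf10. Rpl11 had 143, 162 and 166 in the controls and 89.1, 112 and 97.6 with MMF, and Tfrc, which imports transferrin-bound iron, had 137, 161 and 152 against 90.2, 110 and 94.6. Grcc10 had 181, 166 and 173 against 100, 116 and 84.3, the deepest fall of the 10 (−1.16 relative and −0.80 depth-scaled, limma adjusted p = 3.0e-07). Every MMF sample lay below every control sample at all of these genes. Brd2, a bromodomain protein that reads acetylated histones, differed by −0.50 on the depth-scaled level, Srsf10, a splicing regulator, by −0.52, and Alkbh1, whose promoter also serves Slirp, by −0.71. Hjurp, the chaperone that loads the centromeric histone CENP-A, had a depth-scaled difference of −0.26, which was called, and a quantile-normalised difference of −0.11, which was not. On the centred fold enrichment Grcc10 (−0.56, limma adjusted p = 0.072) and Brd2 (−0.21, adjusted p = 0.48) were not called, and the other 8 were.

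Taco1, Zbtb10 and Hjurp also had the highest levels of all, followed by Gm21887 and Plekhg1. Taco1, an activator of mitochondrial translation, stood at 600, 567 and 537 against 375, 395 and 404, in a region of 235 bp, and Zbtb10 at 476, 479 and 440 against 331, 380 and 331, in a region of 178 bp, where the median CpG-rich promoter with all 6 peaks was 898 bp wide. Ranking by the depth-scaled level, added after the data had been seen, brought in Hmgn1, a nucleosome-binding protein, with 97.4, 75.2 and 95.1 against 50.6, 49.6 and 47.3. It also brought in Camta2, with 41.2, 47.7 and 54.8 against 20.9, 22.7 and 22.2, Tmsb10, a thymosin that binds actin monomers, and the histone gene Hist1h4k.

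Very few CpG-rich promoters rose. Sestd1 had 21.95, 20.2 and 24.2 in the controls and 41.8, 48.2 and 56.2 with MMF, and was called higher on the relative (0.78 ± 0.23 SE, limma adjusted p = 0.0051), depth-scaled (1.13) and quantile-normalised level (0.81), but not on the centred fold enrichment (0.37, limma adjusted p = 0.16). Nsg1, an endosomal protein of neurons, had 8.23, 11.6 and 6.45 against 18.7, 15.6 and 22.2, and Syt17, a synaptotagmin, 13.7, 8.68 and 9.67 against 28.6, 24.1 and 16.3. Both were called higher on the relative and the depth-scaled level (1.13 and 1.09) and not after quantile normalisation (adjusted p = 0.063 and 0.076). They rest on 4 to 26 summit reads. The next by t were Chn2, Foxd1, Dmrt1, Ascl2, Ube2ql1, Dirc2 and Peli2, which passed on the depth-scaled level alone of the fixed scalings, with differences of 0.84 to 1.03. Ascl2, Foxd1 and Dmrt1 encode developmental transcription factors. By the added depth-scaled ranking, Pgs1, Ncam1, an adhesion molecule, Sirpa, the myeloid receptor for CD47, and Rb1cc1, an autophagy initiation factor, were higher on the depth-scaled level by 0.61, 0.70, 0.71 and 0.56. None of these 4 passed on the relative level (0.25, 0.34, 0.35 and 0.21), and on the centred fold enrichment Pgs1 stood at −0.22 and Sirpa at −0.0061.

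In the lists of housekeeping genes 75% to 91.9% of the promoters were called lower on the relative level, beside 68.1% of all CpG-rich promoters. On the depth-scaled level the shares were 4.17% to 18.9%, beside 7.16%. Of the 74 promoters of cytosolic ribosomal proteins with a peak in all lists, 68 were called lower on the relative level, 14 on the depth-scaled level and 7 after quantile normalisation, and none was called higher. Their median level was 116 and their median differences were −0.54 (relative) and −0.18 (depth-scaled), beside −0.47 and −0.12 for all CpG-rich promoters. Rpl36 had the least negative relative difference, with 81.0, 91.1 and 113 against 84.7, 115 and 115. Translation initiation factors (42 of 51 lower on the relative, 5 on the depth-scaled level) had medians of −0.55 and −0.19, from Eif3a with 148, 129 and 134 against 96.8, 83.6 and 112 to Eif4e3 at −0.16 relative. The spliceosome list (35 and 6 of 43) stood at −0.50 and −0.15, respiratory chain subunits (56 and 9 of 67) at −0.50 and −0.15, and mitochondrial ribosomal proteins (49 and 4 of 63) at −0.49 and −0.13.

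The remaining housekeeping lists lay close to the class. RNA polymerase subunits (21 and 1 of 24 called lower on the relative and the depth-scaled level) had medians of −0.50 and −0.15, and DNA replication genes (31 and 2 of 37) −0.53 and −0.18. Proteasome subunits (30 and 4 of 35) stood at −0.47 and −0.11, and aminoacyl-tRNA synthetases (21 and 4 of 28) at −0.44 and −0.09. In most of them the extreme members were far apart. Among proteasome genes Psmb2, a subunit of the catalytic core, went from 111, 116 and 93.5 to 89.1, 72.2 and 78.3, while Psmd6, a subunit of the regulatory particle, went from 41.2, 47.7 and 48.4 to 58.3, 70.8 and 63.6 and was called higher on the depth-scaled level (0.49, limma adjusted p = 0.032) but not on the relative level (0.13). The most negative relative differences of the other lists were at Mrps5 (−0.96), Ndufb8 (−0.91), Polr3f (−0.77), Yars2 (−0.76) and Gins4 (−0.73), all called on the relative level. The least negative or positive were at Mrps22 (0.02), Ndufs5 (−0.17), Snrpb (−0.09), Polr2e (−0.27), Rars2 (−0.26) and Gins3 (−0.20), none of them called.

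Replication-dependent histone promoters, which are CpG-rich without being constantly active, were among the most open. Their median level was 135 and their median differences were −0.61 (relative) and −0.26 (depth-scaled), with 33 of 35 called lower on the relative and 15 on the depth-scaled level. Hist1h1b, a linker histone gene, had 76.8, 89.7 and 116 against 49.5, 49.6 and 75.4, and Hist3h2ba, at a low level, 10.98, 10.1 and 14.5 against 20.9, 12.7 and 11.8. Near-identical histone genes can share reads, so these values are less certain for any single gene. Zinc finger genes named Zfp, the longest list with 176 promoters, lay at −0.46 and −0.11, with 111 called lower on the relative (63.1%) and 10 on the depth-scaled level (5.68%), beside 68.1% and 7.16% of all CpG-rich promoters. Zfp184 (−0.996 relative) and Zfp629 (0.31, not called) were its extremes.

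The regulators of the leukemia had the most negative median of the lists. For the 19 promoters of MLL-AF9 target regulators it was −0.65 on the relative, −0.29 on the depth-scaled and −0.41 on the quantile-normalised level, at a median level of 51.3. On these scales 15 (78.9%), 2 (10.5%) and 7 of the 19 were called lower and none higher. Over all CpG-rich promoters 68.1%, 7.16% and 9.27% were called lower, and over all shared regions 25.3%, 3.08% and 6.27%. Hoxa7 had 57.6, 49.2 and 62.9 in the controls and 45.1, 39.7 and 35.5 with MMF. It was called lower on each of these scales, as was Meis1. Lmo2, a bridging factor of blood transcription complexes, had 41.2, 43.4 and 48.4 against 54.99, 59.5 and 57.6, so here every MMF sample was higher, although neither the relative (0.02) nor the depth-scaled difference (0.38, limma adjusted p = 0.12) passed. The list was drawn up with the study's genes known and is not independent evidence of its direction.

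Of 24 promoters of the menin, MLL and elongation complexes, 23 were called lower on the relative and 3 on the depth-scaled level. Their median differences were −0.54 and −0.19, beside −0.47 and −0.12 for all CpG-rich promoters. Of all CpG-rich promoters 68.1% and 7.16% were called lower on these levels, and of all shared regions 25.3% and 3.08%. Whether this list differs from the class was not tested. Ccnt1, the cyclin of P-TEFb, had 174, 179 and 214 against 123.18, 157 and 155, and Aff4, a scaffold of the super elongation complex, 71.3, 59.3 and 66.1 against 56.1, 80.7 and 72.4, with no call. Purine and guanine nucleotide genes (14 and 0 of 18, 77.8% and 0%) stood at −0.53 and −0.18, from Gmpr (−0.75) to Adssl1 (−0.16, not called). The 14 promoters of CXXC and CpG-binding proteins themselves stood at −0.42 and −0.07, with 10 called lower on the relative (71.4%) and none on the depth-scaled level. Uhrf1, which recruits maintenance methylation, was the lowest of them (−0.63) and the de novo methyltransferase Dnmt3b the highest (−0.06, not called). Blood transcription factors (21 and 3 of 33, 63.6% and 9.09%) lay at −0.46 and −0.11. Egr1, an immediate early gene, went from 147, 165 and 171 to 128, 119 and 121, and Fli1, an ETS factor, from 41.2, 34.7 and 33.9 to 48.4, 55.2 and 47.3, which did not pass on the relative (0.11) or the depth-scaled level (0.46).

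**Figure D5:**
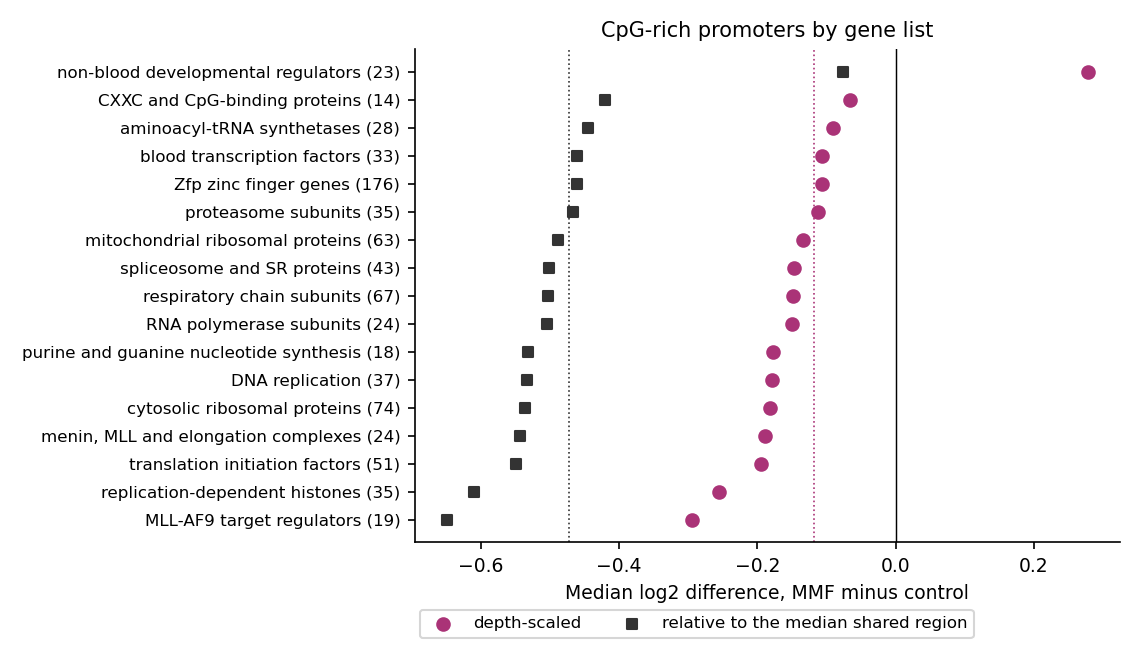
Median log2 difference, MMF minus control, of the CpG-rich promoters of 17 gene lists (number of promoters with a peak in all 6 lists in brackets), depth-scaled (circles) and relative to the median shared region (squares). Dotted lines mark the medians of all CpG-rich promoters, −0.119 and −0.47. MLL-AF9 target regulators lie lowest, at −0.29 and −0.65, and non-blood developmental regulators highest, at 0.28 and −0.08.

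Developmental regulators of other tissues had the highest median differences of the lists. Of 162 such genes 120 had a CpG-rich start, but only 75 of these had a CpG-rich promoter region in any list, and of their 111 promoter regions, starts in poorer DNA included, 23 had a peak in every list. Where present, these regions were weak, at a median level of 25.7, and their median difference was 0.28 on the depth-scaled and −0.08 on the relative and quantile-normalised level. On the relative level 4 of 23 were called lower and none higher, and on the depth-scaled level 3 were called higher and none lower. Over all shared regions 25.3% were called lower on the relative and 21.8% higher on the depth-scaled level, and over the CpG-rich promoters 68.1% and 0.864%. Foxd1, a forkhead factor of the kidney stroma, had 16.5, 17.4 and 12.9 in the controls and 30.8, 38.2 and 23.7 with MMF, and Nkx6-1, a homeobox factor of pancreas and neural tube, 41.2, 40.5 and 40.3 against 24.2, 34.0 and 25.1. Regions of this low level differed upwards in the other classes too, as given by level above, and the part of level in these values was not tested.

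Genes of mature myeloid cells, in contrast, hardly met the class. None of the 34 granule and surface genes had a CpG-rich start, and 1 of them, Cd14, a receptor for lipopolysaccharide, had a region that met the rule, with 16.5, 15.9 and 19.3 against 15.4, 15.6 and 20.7. As a check of the cells, promoter peaks were present at 4 to 5 of 6 markers of leukemic GMPs in each sample, with Kit, Hoxa9 and Meis1 in every list and none at Mpo. T-cell markers had none of 5, and B-cell markers had 0 or 1 of 5. Erythroid markers had 1 to 3 of 5, the endothelial list only Pecam1, and the stromal list 2 or 3 of 5, and the part of other cells in the results was not tested.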

How the data were processed

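ATAC-seq libraries came from murine L-GMP cells, 3 of them control and 3 MMF. Per the labels and the methods, the deposited peak lists are MACS2 output, 1 list a sample with no pooling, and coordinates are those of mm10, with Bowtie2 as the aligner. The submitters' notes also name FastQC and Trim Galore, and versions are not given in the sources used here. The deposited lists give for each peak a fold enrichment over the local background, a ratio, and −log10 values of p and q, with a lowest −log10 p of 3.01 and a shortest peak of 150 bp. The score column and the authors' differential regions were not used.

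Whole reads over each summit were solved from (reads + 1) / (background + 1) and the Poisson p, and came out whole for 100% of peaks (tolerance 0.001 plus 0.0001 of the −log10 p). The median summit held 14 to 19 reads per list, and 52 to 67 at CpG-rich promoters, so weak promoters carry large counting error. Each level was the highest summit of a sample in the region divided by that sample's genome-wide background. A level exists only where a peak was called, so regions without a peak in all 6 lists were compared by presence (overlap of at least 1 bp). Ranks within a list were an alternative only, since they shift with the length of the list, which differed between the groups.

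For regions in all 6 lists, limma 3.58.1 (R 4.3.3, lmFit, eBayes with trend) was run on log2 levels centred on each sample's median, adjusted p of 0.05, after a test on simulated data. Values over samples were compared by two-sided exact permutation. Depth scaling, quantile normalisation, fold enrichment, ranks, left-out samples, stricter peaks, equal list lengths and stricter definitions were alternatives. Promoters were named by a fixed rule, which took the study's genes and purine enzymes, the 10 largest and 10 smallest moderated t, the 5 highest levels, up to 5 gained and 5 lost, both ends of each gene list and the highest level per motif. The members and lists were chosen with earlier results of these data known. Sequence came from GRCm38.p6, with Python 3.11.15, scipy 1.17.1 and pandas 2.3.3.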

Additional observations from a re-analysis of the deposited data

How the results depend on the processing

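The scaling decided how many CpG-rich promoters were called. Beside 3 higher and 5600 lower on the relative level, limma gave 71 and 589 on depth scaling alone, 16 and 762 after quantile normalisation, 0 and 1293 on centred fold enrichment, 20 and 29 on normal scores of list ranks, and, added after the data were seen, 15 and 2810 centred on the median ratio and 1 and 337 on the relative, depth-scaled and quantile-normalised level together. No share over all shared regions was worked out for fold enrichment and list ranks, so their counts are not set against a background. Peaks with −log10 q of at least 2 gave 5 higher. The contrast with CpG-poor promoters turned to 0.0179 after quantile normalisation. Equal list lengths gave 2 gained and 83 lost promoters, and covering at least 50% of the region 66 and 22. The causes were not tested. Cutting the lists to equal length also changed the p cut-off and the merged regions. The median difference and the share of peaks kept their direction under all alternatives run. Leaving out each sample in turn gave 1 to 4 higher and 4202 to 5251 lower calls, 60 to 92 gained and 15 to 33 lost promoters, median differences of −0.502 to −0.431, shares of −3.91 to −3.35 points and contrasts with CpG-poor promoters of −0.229 to −0.170. The fewer gained and lost with all samples follow from asking for more lists.

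Of the 90 named promoters, these changed sign. On depth scaling the log2 differences were 0.0372 at Gmps, 0.00622 at Ppat, 0.143 at Rpl36, 0.184 at Ndufs5, 0.0836 at Polr2e, 0.264 at Snrpb, 0.190 at Eif4e3, 0.0941 at Rars2, 0.322 at Hist3h2ba, 0.155 at Gins3, 0.197 at Adssl1, 0.0767 at Aff4 and 0.296 at Dnmt3b. After quantile normalisation they were 0.0219 at Kmt2a, 0.0519 at Hexim2, 0.139 at Ppat, 0.0660 at Gart, 0.104 at Gm21887, 0.180 at Rpl36, 0.260 at Ndufs5, 0.167 at Polr2e, 0.0123 at Rars2, 0.206 at Adssl1, 0.103 at Traf7, 0.0923 at Dapk3, 0.0377 at Eif5a and 0.124 at Rpp38. On fold enrichment they were 0.0232 at Meis1, −0.218 at Pgs1, −0.00613 at Sirpa, 0.0880 at Gm21887, 0.0519 at Rpl36, −0.0108 at Mrps22, 0.0536 at Snrpb, 0.146 at Hist3h2ba and 0.271 at Dnmt3b. Leaving out each sample in turn, the sign changed at Mrps22 (−0.0457 to 0.135), Lmo2 (−0.0492 to 0.114), Gins3 (−0.317 to 0.0935), Snrpb (−0.180 to 0.0577), Eif4e3 (−0.254 to 0.0172), Hist3h2ba (−0.295 to 0.149) and Dnmt3b (−0.239 to 0.109), none of them called with all samples. Of the rest, 24 calls were lost and 12 gained on depth scaling, 23 lost and 4 gained after quantile normalisation, and 35 lost on fold enrichment. Over all fits that left out a sample, 31 calls were lost and 5 gained.

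Whether replicate numbers pair the samples is not given in the labels. Deviations from the group means of same-numbered samples correlated at −0.000923, 0.00359 and −0.00267 over the shared regions. With few reads at most summits, such values cannot exclude a pairing. Fitting the replicate block gave 3 higher and 5618 lower calls and changed no call among the named promoters. Depth limits the weakest promoters, since a level under 16 rests on few reads, and levels exist only where a peak was called.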
